A study of Arabidopsis thaliana with 12 samples.

Results

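The 33 genes described here serve the S phase of the cell cycle, in which the nuclear genome is copied once and wrapped into new nucleosomes. They were chosen by locus for what their products are known to do, out of 25424 genes in the count table, and all 33 passed the filter on low counts that left 21897 genes tested. They are PCNA1 and PCNA2, the ribonucleotide reductase genes RNR1, RNR2A and TSO2, MCM2 to MCM7, CDC45, CDT1A, CDC6, ORC1A, ORC1B, ORC2, ICU2, FAS1 and FAS2, the 5 genes of histone H3.1 and the 8 genes of histone H4. The RNA libraries, 12 in all and 3 in each of 4 groups, were made from inflorescence meristems dissected from Arabidopsis thaliana. The groups are wild type (col0) at low humidity, wild type at high humidity, and a mutant of the aquaporin gene PIP2;5 at each of the same air humidities. The labels call the mutant pip2 or pip2d, and it is called pip2 below. Its allele, the number of lines, the humidity values, the age of the plants, the hour of sampling, and whether a library is 1 plant or a pool are not given in the sources used here. The p-values below therefore measure the spread between these libraries.

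Replication origins are marked by the origin recognition complex, whose subunits include ORC1 and ORC2. CDC6 and CDT1 then load the MCM2 to MCM7 helicase there, and CDC45 switches that helicase on when S phase starts. DNA polymerase alpha, whose catalytic subunit is ICU2, primes the new strands, PCNA is the ring that holds polymerases on DNA, and ribonucleotide reductase makes the deoxyribonucleotides. Behind the fork, chromatin assembly factor 1, with FAS1 and FAS2 as subunits, deposits new histone H3.1 together with H4. Transcripts of such genes peak in S phase, and many of the genes carry E2F sites, bound by E2F factors, while histone genes of plants carry a promoter element known as the octamer. Loss of FAS1 or FAS2 gives fasciated stems in Arabidopsis, so the shoot meristem is a tissue where this machinery has long been studied.

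The promoters show that the histone genes and the other S-phase genes differ in their 5′ sequence. Printed here are the 250 bases before the annotated gene start, 5′ to 3′ on the gene's strand, from the RefSeq genome TAIR10.1, in which all 33 loci were found. Capitals mark words of the 3 motifs searched on both strands: the E2F words TTTCCCGC, TTTCCCGG, TTTCGCGC, TTTCGCGG, TTTGCCGC, TTTGCCGG, TTTGGCGC and TTTGGCGG, the octamer CGCGGATC, and the telo box AAACCCTAA. MCM5, CDT1A and ORC1A are shown for E2F words close to the start, HTR2 for its 2 octamers, and PCNA1 as a gene with a large response and no E2F word here. The H4 genes AT3G46320 and AT1G07660 are the H4 genes with the largest and the smallest change with humidity.
MCM5 (chr2:3527501-3527750, minus strand): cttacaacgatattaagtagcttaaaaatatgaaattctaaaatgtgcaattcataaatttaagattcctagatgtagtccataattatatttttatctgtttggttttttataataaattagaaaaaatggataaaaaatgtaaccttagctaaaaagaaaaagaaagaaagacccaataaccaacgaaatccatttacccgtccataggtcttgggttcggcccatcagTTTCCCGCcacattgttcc
CDT1A (chr2:13328612-13328861, plus strand): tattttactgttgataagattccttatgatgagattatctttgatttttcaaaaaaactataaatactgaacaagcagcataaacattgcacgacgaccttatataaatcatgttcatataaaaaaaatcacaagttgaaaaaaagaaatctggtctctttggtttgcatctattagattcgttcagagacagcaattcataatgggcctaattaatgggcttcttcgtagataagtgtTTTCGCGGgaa
ORC1A (chr4:8421923-8422172, plus strand): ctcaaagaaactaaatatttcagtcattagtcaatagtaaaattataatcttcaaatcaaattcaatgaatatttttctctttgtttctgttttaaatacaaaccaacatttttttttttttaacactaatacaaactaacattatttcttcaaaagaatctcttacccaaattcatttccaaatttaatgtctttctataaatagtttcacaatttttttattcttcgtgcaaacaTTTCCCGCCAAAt
PCNA1 (chr1:2262787-2263036, plus strand): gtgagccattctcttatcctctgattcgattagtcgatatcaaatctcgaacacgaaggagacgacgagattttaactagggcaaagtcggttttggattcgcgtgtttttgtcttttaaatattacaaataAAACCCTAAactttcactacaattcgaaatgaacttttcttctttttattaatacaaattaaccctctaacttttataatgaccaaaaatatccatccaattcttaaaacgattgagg
HTR2 (chr1:2972335-2972584, minus strand): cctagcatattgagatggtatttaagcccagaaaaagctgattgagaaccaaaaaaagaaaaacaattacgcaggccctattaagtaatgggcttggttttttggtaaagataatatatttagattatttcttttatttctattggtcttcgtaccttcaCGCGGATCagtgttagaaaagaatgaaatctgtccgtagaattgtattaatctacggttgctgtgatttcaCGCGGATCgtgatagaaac
H4 AT3G46320 (chr3:17020429-17020678, minus strand): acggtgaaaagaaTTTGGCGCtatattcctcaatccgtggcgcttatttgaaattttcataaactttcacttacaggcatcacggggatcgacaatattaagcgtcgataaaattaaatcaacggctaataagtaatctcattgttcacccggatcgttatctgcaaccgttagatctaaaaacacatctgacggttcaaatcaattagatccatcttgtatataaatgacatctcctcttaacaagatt
H4 AT1G07660 (chr1:2368583-2368832, plus strand): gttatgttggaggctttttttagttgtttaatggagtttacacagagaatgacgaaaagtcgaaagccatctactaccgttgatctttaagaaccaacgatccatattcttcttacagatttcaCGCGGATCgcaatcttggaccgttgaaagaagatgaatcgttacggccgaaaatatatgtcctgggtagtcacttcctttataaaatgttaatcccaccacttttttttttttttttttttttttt

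At least 1 E2F word was found in 14 of the 33 windows (42.4%), against 768 of 27443 windows (2.80%) of all protein-coding genes on chromosomes 1 to 5. Of the 20 genes that are not histones 12 held one (60.0%), among them MCM2 to MCM6, CDC45, CDT1A, ORC1A, ORC2, ICU2, FAS1 and FAS2. Of the 13 histone genes 2 held one, the H4 genes AT3G45930 and AT3G46320. The words lay near the start: 15 of the 19 matches began within 75 bases of it. The 2 matches of ORC1A overlap, on opposite strands. The octamer was found in 5 windows, those of HTR1, HTR2, HTR9 and the H4 genes AT1G07660 and AT5G59690. That is 38.5% of the histone genes, 0 of the 20 others, and 0.135% of all windows. The telo box was in 1 window of the 33, that of PCNA1, and in 2.61% of all windows. In PCNA1, PCNA2, RNR1, RNR2A, TSO2, MCM7, CDC6 and ORC1B these E2F letters are not in this window.

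Sequence also limits which of these genes can be told apart by short reads. Of the 50-base windows of its exons, the H4 gene AT1G07660 had 30.8% that occur more than once in the genome. For the H4 gene AT1G07820 this was 19.4%, and these genes share windows with each other. The H4 genes AT3G45930 and AT3G46320 shared 25.7% and 27.9% of theirs, and AT5G59690 and AT5G59970 shared 8.48% and 6.94%. HTR3 and HTR9 shared 1.28% and 1.36%, and ORC1A and ORC1B 2.14% and 1.90%. The other members had no such window elsewhere in the genome, apart from 0.211% in CDC6. Values of single genes in those pairs are uncertain to the extent that the counting split shared reads between them.

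In wild type at low humidity the histone genes stood highest of the 33. On the TPM scale, which divides by transcript length and so allows genes to be compared, HTR1 averaged 453 ± 38.6 TPM (SD, n = 3), the H4 gene AT5G59690 423 ± 30.4, HTR2 393 ± 31.8 and HTR9 307 ± 11.3 TPM. All 13 histone genes were among the 14 highest, and TSO2, the only other gene there, averaged 142 ± 15.8 TPM. PCNA2 followed with 54.1 ± 4.04 TPM, RNR1 with 54.1 ± 6.84 and PCNA1 with 52.0 ± 4.85 TPM. The MCM genes lay between 19.5 ± 2.47 TPM for MCM6 and 30.7 ± 4.01 TPM for MCM5. At the low end were CDC45 with 8.51 ± 0.406 TPM, ORC1A with 5.26 ± 0.252, ORC2 with 5.00 ± 0.823 and CDC6 with 3.51 ± 0.523 TPM. Of the 32 pairs of neighbours in this order 21 overlapped in their library values, so the order is firm only in its steps, such as those after HTR2, HTR9, TSO2, PCNA1 and CDC45. Summed TPM of the 8 H4 genes was 9.73 to 13.8 times that of the 6 MCM genes in each of the 12 libraries.

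**Figure D1:**
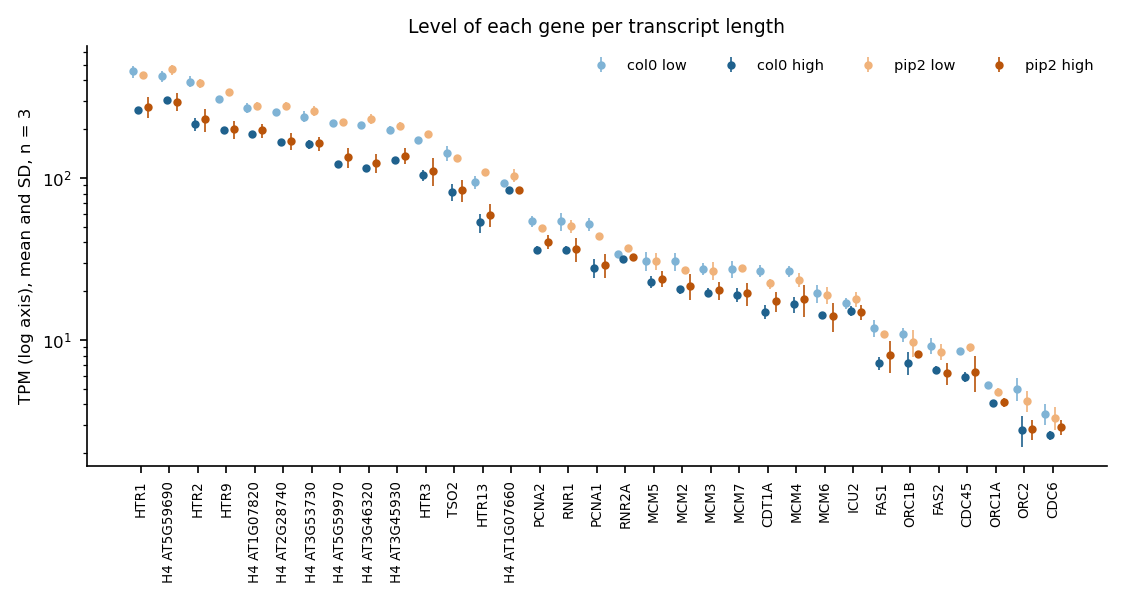
Level of each of the 33 genes in TPM (log axis), as the mean and SD of 3 libraries in each of the 4 groups, ordered by the mean in col0 at low humidity. The histone genes and TSO2 fill the left, the origin genes the right, and in most genes the darker points (high humidity) lie below the lighter ones of the same genotype.

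The mutant label was checked first on its own gene. PIP2;5 stood at 70.8 ± 0.876 CPM (counts scaled to the TMM-adjusted library total; SD, n = 3) in col0 at low humidity and 50.8 ± 1.33 CPM at high humidity, and at 0.785 ± 0.348 and 0.962 ± 0.204 CPM in pip2. Libraries held 17850187 to 28445060 counts, and across genes the libraries of a group correlated at 0.988 to 0.994 on log2(CPM + 1). Of the markers of the dissected tissue, the stem cell organizer gene WUS read 17.7 to 33.8 CPM and the meristem gene STM 37.2 to 54.4 CPM over all libraries. Anther markers were present too, and 9 of them summed to 2548 to 4514 CPM over all libraries. CLV3 is not analysed here. The library pip2 high replicate 2 was the lowest of its group in 30 of 33 genes. Replicate 2 was also the lowest in 22 of 33 genes in col0 at low humidity, 22 in col0 at high humidity and 18 in pip2 at low humidity. Counts for humidity in pip2 are given with and without pip2 high replicate 2, and so are the members whose call it decides. Leaving it out keeps pip2 low replicate 2, itself often the lowest, on the other side of the comparison. In bulk samples fewer cells in S phase and less RNA per cell cannot be told apart.

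How the wild-type meristem differs between the humidities was the first comparison. At high humidity the S-phase genes were lower as a block: 31 of 33 fell and 0 rose, by edgeR's quasi-likelihood test with Benjamini-Hochberg adjustment over all 21897 genes. Over all tested genes 30.2% passed in either direction and 15.8% fell. In all 33 members each library at high humidity lay below each library at low humidity, a pattern found in 22.9% of tested genes. The median log2 fold change of the members was -0.62, a level 34.9% lower, against -9.72e-05 over all tested genes. Summed over the members, expression was 2344, 2252 and 2428 CPM at low humidity and 1572, 1454 and 1519 CPM at high humidity, so the groups were far apart relative to their spread.

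**Figure D2:**
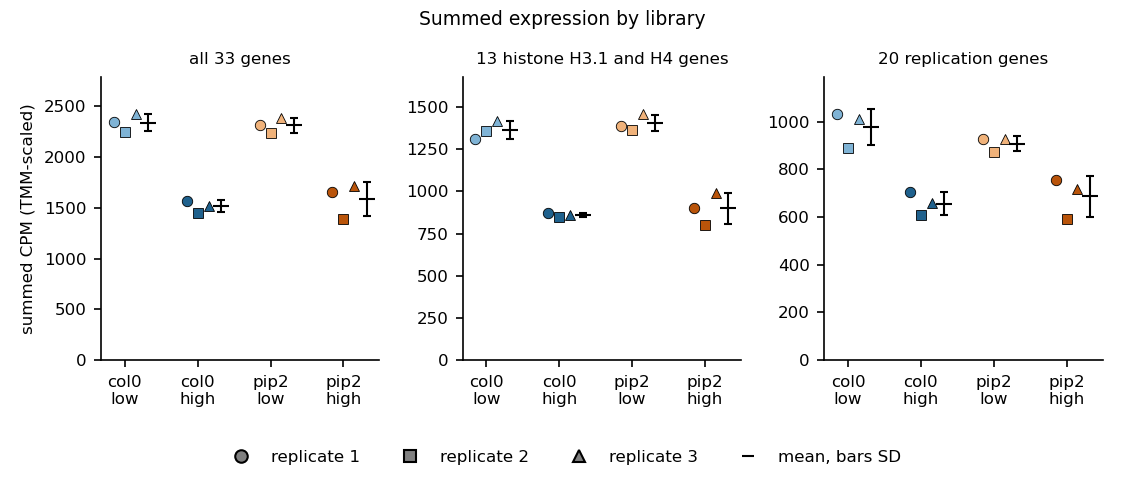
Summed CPM of all 33 genes, of the 13 histone genes and of the 20 other genes in each of the 12 libraries, with mean and SD (n = 3) beside the points. In both genotypes every library at high humidity lies below every library at low humidity, and the square in the pip2 high group is replicate 2.

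The mutant gave the same direction. In pip2 30 of 33 genes fell at high humidity and 0 rose (edgeR adjusted p), where 24.0% of all tested genes passed and 11.7% fell. In 31 of 33 the humidities did not overlap with high below low, against 18.5% of tested genes. The median log2 fold change was -0.48, against 0.014 over all tested genes. Summed expression was 2315, 2239 and 2388 CPM at low humidity and 1657, 1394 and 1711 CPM at high humidity. The 2 genotypes share no library, and 28 genes fell in both. Without pip2 high replicate 2 the count fell to 18 of 33, with a median of -0.34 and all 33 values still below 0. The 18 were all 13 histone genes and 5 of the 20 others, namely PCNA1, TSO2, RNR1, MCM3 and MCM7. The share of all tested genes that fell in the fit without that library is not given here. Whether the loss of calls is particular to these genes was not tested.

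**Figure D3:**
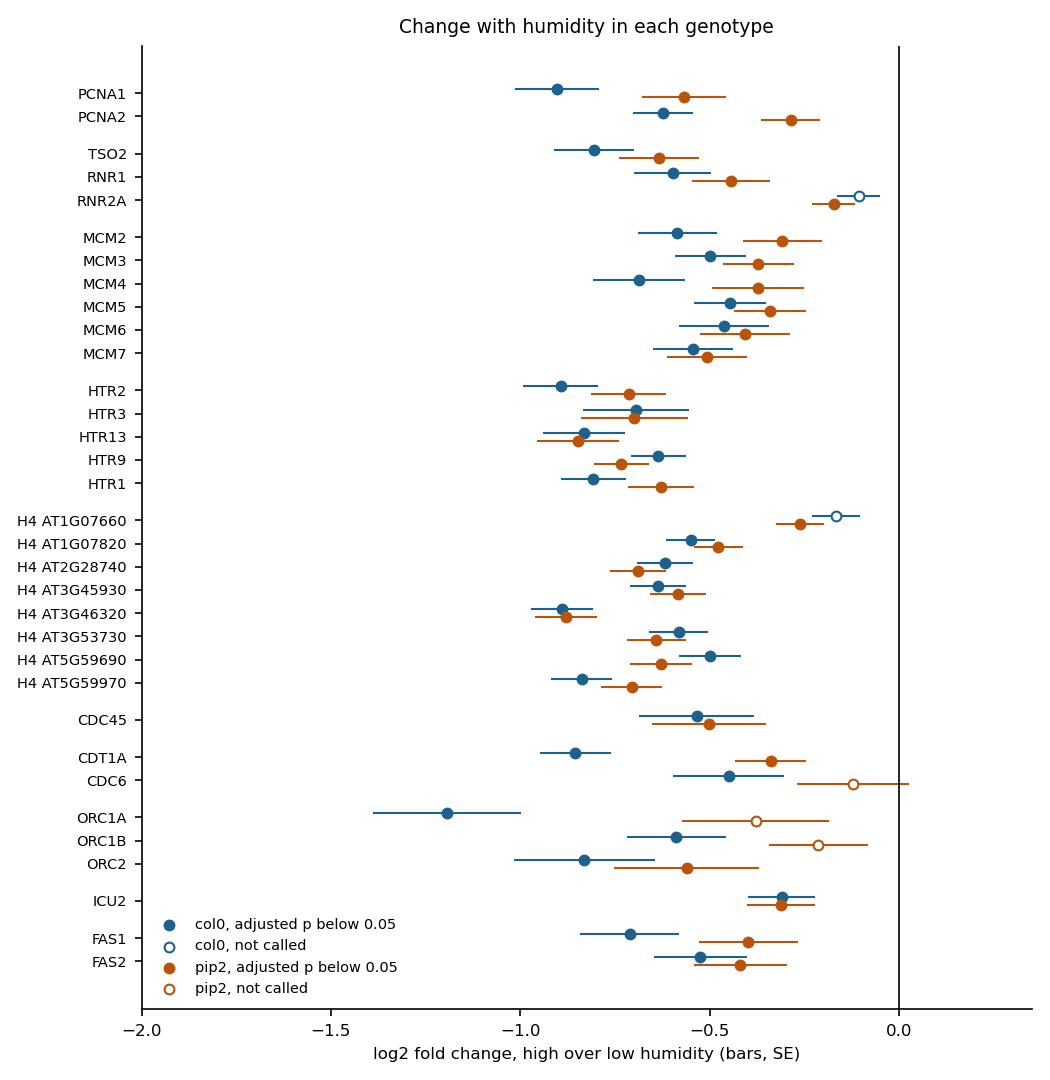
Log2 fold change of high over low humidity for each gene, grouped by role, in col0 (blue) and pip2 (orange). Bars are standard errors, filled points passed an adjusted p of 0.05 in edgeR's quasi-likelihood test, and all points lie left of 0.

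Both sliding clamp genes fell, and the estimated fall was larger for PCNA1 than for PCNA2 in each genotype, a difference that was not tested. PCNA1 read 44.6, 39.1 and 41.0 CPM in the 3 col0 libraries at low humidity and 23.6, 19.0 and 24.0 CPM at high humidity. In pip2 it read 33.9, 34.6 and 34.9 CPM at low humidity and 25.0, 19.1 and 25.8 CPM at high humidity. Neither genotype showed overlap between humidities, and the log2 fold change was -0.90 ± 0.11 in col0 (edgeR adjusted p = 5.83e-05) and -0.57 ± 0.11 in pip2 (adjusted p = 0.00236). PCNA2, which encodes the second copy of the clamp, read 50.9, 47.0 and 53.0 CPM at low and 34.9, 31.9 and 31.3 CPM at high humidity in col0. In pip2 it read 42.1, 47.6 and 43.5 and 39.9, 33.6 and 35.8 CPM, closer together but without overlap. It fell in both, with log2 fold changes of -0.62 ± 0.08 and -0.29 ± 0.08, and in pip2 the adjusted p of 0.0174 became 0.0572 without pip2 high replicate 2.

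Among the ribonucleotide reductase genes the small-subunit gene TSO2 and the large-subunit gene RNR1 fell, while the other small-subunit gene, RNR2A, barely moved. TSO2 read 140.5, 120.5 and 142 CPM at low and 88.1, 67.6 and 75.2 CPM at high humidity in col0, and 121, 124 and 123 and 89.2, 67.6 and 80.6 CPM in pip2. The humidity groups were well separated in each genotype, at -0.81 ± 0.10 in col0 and -0.63 ± 0.11 in pip2 (log2, adjusted p = 9.44e-05 and 0.000684). RNR1 changed by -0.60 ± 0.10 and -0.44 ± 0.10. RNR2A read 51.7, 52.8 and 55.4 CPM at low and 51.1, 50.4 and 47.2 CPM at high humidity in col0, where the 95% interval of its log2 fold change ran from -0.24 to 0.024 (adjusted p = 0.176). It was 1 of the 2 members not called in wild type. In pip2 it fell by a small step (-0.17 ± 0.06, adjusted p = 0.0412), a call lost without pip2 high replicate 2 (adjusted p = 0.0783).

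The MCM helicase genes moved as a set: all 6 fell in each genotype, with no overlap between humidities. In col0 the log2 fold changes ran from -0.45 ± 0.10 for MCM5 to -0.69 ± 0.12 for MCM4, and in pip2 from -0.31 ± 0.10 for MCM2 to -0.51 ± 0.11 for MCM7. MCM5 shows how the libraries stood: 79.8, 65.2 and 76.3 CPM at low and 59.1, 49.8 and 53.6 CPM at high humidity in col0, and 76.2, 64.7 and 75.6 and 60.0, 51.1 and 59.9 CPM in pip2. Replicate 2 was the lowest library for MCM5 in each of the 4 groups, and in pip2 at high humidity it was the lowest for all 6 MCM genes. MCM7, which lacks an E2F word in its window, read 76.7, 62.7 and 75.7 CPM at low and 54.5, 43.7 and 49.5 CPM at high humidity in col0. Its values in pip2 were 72.9, 69.3 and 72.2 and 53.5, 42.3 and 55.2 CPM, and MCM7 and MCM3 were the MCM genes that kept an adjusted p under the threshold without pip2 high replicate 2 (0.0114 and 0.0426). Without that library MCM2, MCM4, MCM5 and MCM6 had log2 fold changes of -0.28 to -0.19 in pip2 and adjusted p of 0.073 to 0.146.

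The genes of histone H3.1, the H3 form deposited with replication, fell without exception. All 5 passed the test in both genotypes, with medians of -0.81 in col0 and -0.71 in pip2. HTR2 read 159.5, 148 and 169.8 CPM at low and 95.1, 78.2 and 84.1 CPM at high humidity in col0 (-0.89 ± 0.10, adjusted p = 2.52e-05). In pip2 it read 149, 146 and 163 and 98.8, 77.9 and 102 CPM (-0.71 ± 0.10, adjusted p = 0.00017). The high-humidity libraries of both genotypes lay in one range, well under all 6 low-humidity libraries. HTR13 was the H3.1 gene with the largest change in pip2: 39.5, 40.7 and 40.1 CPM at low and 23.3, 18.6 and 25.0 CPM at high humidity (-0.85 ± 0.11), next to -0.83 ± 0.11 in col0. HTR1 changed by -0.81 ± 0.09 and -0.63 ± 0.09, HTR9 by -0.64 ± 0.07 and -0.73 ± 0.07, and HTR3 by -0.70 ± 0.14 and -0.70 ± 0.14, in col0 and pip2 in turn. The ratio of count to TPM of HTR3 ranged over 0.286 log2 units among libraries, yet its change in col0 was much the same in the TPM values (-0.73 ± 0.11).

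The H4 genes encode histone H4 from separate loci, and they did not respond alike. The largest change was that of AT3G46320, with 73.0, 71.8 and 74.6 CPM at low and 41.6, 38.2 and 38.5 CPM at high humidity in col0, and 73.9, 75.6 and 84.6 and 42.2, 37.4 and 47.9 CPM in pip2. Its log2 fold changes were -0.89 ± 0.08 and -0.88 ± 0.08 (adjusted p = 5.33e-06 and 5.24e-06). The smallest change was that of AT1G07660, with 43.3, 45.6 and 47.1 CPM at low and 41.1, 40.9 and 39.1 CPM at high humidity in col0, and 47.4, 46.9 and 53.6 and 41.0, 40.4 and 42.1 CPM in pip2. These groups were separate but close. In col0 the value was -0.17 ± 0.06 with an adjusted p of 0.06, which became 0.0384 without pip2 low replicate 3 and 0.0494 with the replicate number as a block. In pip2 it was -0.26 ± 0.06 (adjusted p = 0.00869). The 95% intervals of the 2 genes do not meet in col0: -1.08 to -0.70 for AT3G46320 and -0.31 to -0.022 for AT1G07660. These 2 were picked as the extremes of the H4 genes, so the gap partly reflects that choice. The other 6 H4 genes fell by 0.50 to 0.84 in col0 and by 0.48 to 0.71 in pip2 on the log2 scale.

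The make-up of the H4 transcript pool shifted accordingly. AT1G07660 supplied 4.81% to 4.93% of the summed H4 TPM in col0 at low humidity and 6.48% to 6.81% at high humidity. In pip2 its share was 4.87% to 5.35% and 5.98% to 6.93%. The share of AT3G46320 went the other way, from between 10.8% and 11.8% to between 8.82% and 9.58% in col0, and from between 10.8% and 11.7% to between 9.08% and 9.73% in pip2. The humidities did not overlap in any of these 4 comparisons. AT1G07660 and AT3G46320 were picked from these data as the extremes of change among the H4 genes. The direction of each shift therefore follows from that choice. Both genes share windows with another H4 gene, as given above.

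Origin licensing and recognition genes were called lower in 5 of 5 cases in col0 and in 2 of 5 in pip2. Without pip2 high replicate 2 this was 0 of 5 in pip2. Over all tested genes 15.8% fell in col0 and 11.7% in pip2. All 5 values in pip2 were below 0, and none of the 5 was called for the interaction in the main fit (edgeR adjusted p of 0.178 to 0.862). CDT1A read 44.0, 39.4 and 42.2 CPM at low and 24.5, 20.7 and 24.3 CPM at high humidity in col0, and 35.9, 33.1 and 33.8 and 27.2, 23.7 and 30.5 CPM in pip2. It fell in both, with log2 fold changes of -0.85 ± 0.09 in col0 and -0.34 ± 0.09 in pip2, and the latter was -0.26 without pip2 high replicate 2 (adjusted p = 0.0687). At low humidity each pip2 library lay below each col0 library, a pattern found in 11.2% of tested genes. At high humidity 2 of the 3 pip2 libraries lay above all those of col0. CDC6, the loader that works with CDT1, read 8.26, 6.46 and 7.25 CPM at low and 5.53, 5.03 and 5.53 CPM at high humidity in col0 (-0.45 ± 0.15, adjusted p = 0.0331). In pip2 its humidity groups overlapped, with 7.16, 5.61 and 7.57 and 6.88, 5.66 and 6.21 CPM (-0.12 ± 0.15, adjusted p = 0.598). The call of CDC6 in col0 was lost in 8 of 20 alternatives.

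ORC1A had the largest change of all members in the counts and also the least certain one. It read 3.18, 3.31 and 3.75 CPM at low and 1.36, 1.46 and 1.62 CPM at high humidity in col0 (-1.19 ± 0.19, adjusted p = 0.000494), and 3.16, 2.60 and 2.44 and 2.40, 1.79 and 2.14 CPM in pip2 (-0.38 ± 0.19, adjusted p = 0.177). In the authors' TPM values the change in col0 was -0.36 ± 0.11 on log2(TPM + 0.1) (limma, adjusted p = 0.028). The ratio of count to TPM ranged over 1.1 log2 units among the libraries in ORC1A, where a typical tested gene ranged over 0.0546, so the 2 files do not rest on the same assignment of reads for this gene. ORC1B read 15.7, 15.0 and 18.5 CPM at low and 10.4, 9.74 and 12.5 CPM at high humidity in col0 (-0.59 ± 0.13, adjusted p = 0.0041). In pip2 its groups overlapped at 16.1, 11.8 and 15.2 and 12.2, 12.2 and 12.8 CPM, and the value was -0.21 ± 0.13 (adjusted p = 0.265). ORC2 fell in both (-0.83 ± 0.19 and -0.56 ± 0.19), in pip2 with an adjusted p of 0.0466, a call lost in 12 of 20 alternatives, among them the fit without pip2 high replicate 2 (-0.48, adjusted p = 0.137).

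Fork and chromatin assembly genes completed the set. CDC45 read 10.9, 10.6 and 9.91 CPM at low and 7.62, 6.67 and 7.36 CPM at high humidity in col0 (-0.54 ± 0.15, adjusted p = 0.0162), and it changed by -0.50 ± 0.15 in pip2, where the value without pip2 high replicate 2 was -0.32 (adjusted p = 0.0729). ICU2, the polymerase alpha subunit, had a small change of one size in both genotypes (-0.31 ± 0.09 and -0.31 ± 0.09), and in pip2 its value without pip2 high replicate 2 was -0.25 (adjusted p = 0.088). In the TPM values its change in col0 was -0.16 ± 0.10 with an adjusted p of 0.282, so the call rests on the counts. FAS1 read 31.9, 26.6 and 29.7 CPM at low and 18.9, 16.3 and 18.7 CPM at high humidity in col0 (-0.71 ± 0.13, adjusted p = 0.00119). In pip2 FAS1 read 26.5, 27.1 and 26.2 and 22.6, 15.1 and 23.1 CPM, with replicate 2 well below the other libraries at high humidity (-0.40 ± 0.13, adjusted p = 0.042). Without that library FAS1 was at -0.23 (adjusted p = 0.106) and no longer called. FAS2 changed by -0.53 ± 0.12 in col0 and -0.42 ± 0.12 in pip2, where it was at -0.32 (adjusted p = 0.0916) without that library.

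**Figure D4:**
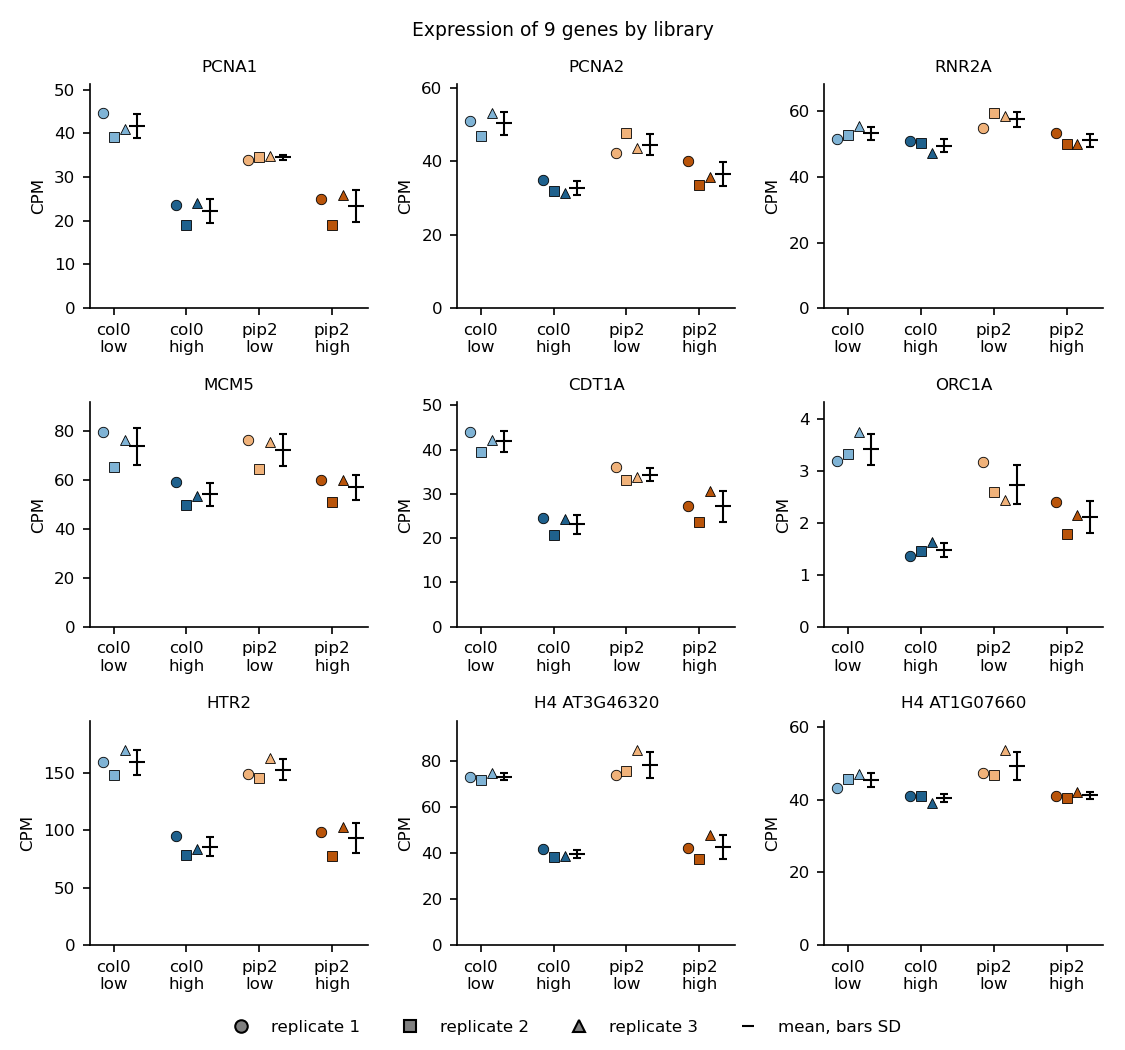
CPM of 9 genes in each of the 12 libraries, with mean and SD (n = 3) beside the points and all axes starting at 0. PCNA1, HTR2 and the H4 gene AT3G46320 separate the humidities widely, RNR2A and the H4 gene AT1G07660 hardly. CDT1A and ORC1A separate them more in col0 than in pip2. For ORC1A the counts and the TPM values differ, as given in the text.

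The genotypes themselves were compared at each humidity, and no member was called. At low humidity 0 of 33 passed in edgeR, where 2.79% of tested genes did. CDT1A, PCNA1 and PCNA2 had an unadjusted p under 0.05, a share of members below the 13.9% of all tested genes. DESeq2 and limma also called 0. The median log2 fold change of pip2 over col0 was -0.058, and 17 of the 20 genes that are not histones lay below 0 while all 8 H4 genes lay above it. Over all tested genes 11093 of 21897 lay below 0. The members' median rested on single libraries: it was 0.011 without pip2 low replicate 2, with 15 of 33 below 0, -0.014 without col0 low replicate 3, -0.016 without col0 low replicate 1 and -0.11 without col0 low replicate 2. CDT1A stood at -0.29 ± 0.09, its pip2 libraries all below those of col0 (adjusted p = 0.138), as in 11.2% of tested genes. With the replicate number as a block, CDT1A was the 1 member called, at -0.29 with an adjusted p of 0.0297. That block rests on a pairing seen in these data, which the labels do not give. At high humidity 0 of 33 passed in edgeR, DESeq2 and limma, where 0.466% of tested genes passed in edgeR. CDT1A (0.23 ± 0.09) and ORC1A (0.49 ± 0.20) had an unadjusted p under 0.05, next to 8.93% of all tested genes. Across the alternatives the value of ORC1A ran from 0.014 to 0.59. Its TPM averaged 4.08 in col0 and 4.13 in pip2 at high humidity. Here 29 of the 33 lay above 0, among them 17 of the 20 genes that are not histones, with a median of 0.088, where 11433 of 21897 tested genes lay above 0. That median was 0.025 without pip2 high replicate 3, 0.038 without pip2 high replicate 1, 0.040 without col0 high replicate 2, 0.13 without col0 high replicate 1 and 0.15 without pip2 high replicate 2.

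Whether the response to humidity depends on the genotype was tested by the interaction, the change in pip2 minus the change in col0. In edgeR 0 of 33 passed, where 0.352% of tested genes did, and DESeq2 and limma called 0. An unadjusted p under 0.05 was found for 3 members: CDT1A (0.52 ± 0.13, adjusted p = 0.178), PCNA2 (0.34 ± 0.11, adjusted p = 0.392) and ORC1A (0.81 ± 0.27, adjusted p = 0.409). Over all tested genes 7.53% had such a p. Across the alternatives the interaction of ORC1A ran from 0.13 to 0.93, and its counts and TPM values differ, as given above. The interaction was above 0, a smaller fall in pip2, in 18 of the 20 genes that are not histones, with a median of 0.22, while the 13 histone genes had a median of -0.0044. Over all tested genes 11708 of 21897 lay above 0. Over all 33 members the median was 0.11, and with 1 library left out it ran from 0.049, without pip2 low replicate 2, to 0.20, without pip2 high replicate 2. Among the 20 genes that are not histones it ran from 0.11, without col0 high replicate 2, to 0.31, without col0 high replicate 1, with 15 to 19 of them above 0. These values side by side are a description. The interval of CDT1A ran from 0.21 to 0.82 before adjustment for the number of genes, and that of PCNA1 from -0.028 to 0.70. A p that misses the threshold does not show that the genotypes respond alike.

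Genes with and without a motif in the window were set side by side within the histone genes and within the others. Among the 20 genes that are not histones, the 12 with an E2F word had a median log2 fold change of -0.56 in col0 and -0.38 in pip2. The 8 without had medians of -0.59 and -0.37. The 5 histone genes with an octamer had medians of -0.64 and -0.63, and the 8 without -0.67 and -0.69. The octamer genes include both HTR2, with one of the largest changes, and the H4 gene AT1G07660, with the smallest among histones. Over all 33 members the 14 with an E2F word had medians of -0.61 in col0 and -0.39 in pip2 and the 19 without -0.62 and -0.63, and 12 of those 14 but 8 of those 19 are genes other than histones. The 28 members without an octamer, 20 of them not histones, had medians of -0.61 and -0.43.

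Other genes of DNA replication fell in part. Of 51 further replication genes tested, 24 fell and 0 rose in col0, and 19 fell and 1 rose in pip2, with medians of -0.28 and -0.23. The count in col0 was 12 without col0 high replicate 2, when the count of all tested genes that fell also went from 3468 to 2270, and 15 without col0 low replicate 3. In pip2 15 fell and 0 rose without pip2 high replicate 2. DUT1, which encodes the enzyme that keeps uracil out of DNA, had the smallest adjusted p of them in col0 (-1.17 ± 0.11 in col0, adjusted p = 6.69e-06; -0.94 ± 0.11 in pip2, adjusted p = 4.19e-05). Some genes of replication protein A, which coats single-stranded DNA, fell too. RPA1B changed by -1.05 ± 0.10 and -0.80 ± 0.10, RPA1D by -0.84 ± 0.09 in col0 and RPA3A by -1.03 ± 0.11 in pip2. In pip2 others of this family were not called, and the 1 further replication gene that rose belongs to it. The partner histones of the nucleosome followed. Of 9 genes of H2A, H2A.X and H2A.W, 7 fell in each genotype, among them HTA10 (-0.68 ± 0.06 and -0.64 ± 0.06), HTA7 (-0.52 ± 0.05 and -0.49 ± 0.05) and HTA5 (-0.48 ± 0.05 and -0.52 ± 0.05). Of 10 H2B genes tested, 7 fell in col0 and 8 in pip2. In pip2, 6 of the 9 and 8 of the 10 fell without pip2 high replicate 2. The H2B genes that fell included HTB1 (-0.85 ± 0.09 and -0.65 ± 0.09), HTB11 (-0.51 ± 0.05 and -0.47 ± 0.05) and HTB5 (-0.56 ± 0.07 and -0.59 ± 0.07). HTB10 is not analysed here.

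Among histones that are laid down outside replication, 6 genes of H3.3 and H2A.Z were tested. Of these 3 fell in col0 and 2 in pip2, with medians of -0.22 and -0.21. Over all tested genes 15.8% fell in col0 and 11.7% in pip2. The H3.3 gene HTR8 changed by -0.30 ± 0.05 and -0.26 ± 0.05, the H2A.Z gene HTA11 by -0.66 ± 0.07 and -0.56 ± 0.07, and the H2A.Z gene HTA8 by -0.41 ± 0.14 in col0. Of the 3 linker histone genes, H1.1 fell in both (-0.26 ± 0.06 and -0.33 ± 0.06). Between genotypes, at low humidity, the list genes called were HTA12, an H2A.W gene (0.32 ± 0.07, adjusted p = 0.0366), and H1.3, a linker histone gene known to respond to drought (1.22 ± 0.28, adjusted p = 0.033), both higher in pip2. In the other lists no gene passed at low humidity. The genes with the smallest p there were TK1B, HTB7, HTA9, KRP7, AUR2, WEE1, CLV1, GRP17, XCP2, RBCS1B and LUX, 1 in each list, with adjusted p of 0.0831 to 0.68. No list gene passed at high humidity, where ASF1B, HTA7, HTB6, HTA11, H1.3, E2FC, CYCB1;1, XRI1, WUS, ATA7, CESA8, LHCB2.2 and PRR9 led their lists with adjusted p of 0.117 to 0.66. For the interaction ORC4, HTA12, HTB8, HTA11, H1.3, E2FC, AUR2, WEE1, AG, A9, MYB46, LHCB1.1 and RVE8 led with 0.261 to 0.86, and none passed.

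S-phase entry was covered by 17 genes, namely E2F and DP factors, RBR1, a cyclin-dependent kinase gene and KRP inhibitors. Of these 4 fell and 2 rose in col0, and 2 fell and 1 rose in pip2. Over all tested genes 15.8% fell and 14.3% rose in col0, and 11.7% fell and 12.3% rose in pip2. In pip2 the shares that fell in this list and in the G2 and mitosis list below were close to 11.7%. KRP4, an inhibitor of cyclin-dependent kinases, rose in both (0.50 ± 0.07, adjusted p = 0.000128, and 0.41 ± 0.07, adjusted p = 0.000618). The atypical E2F gene DEL2 fell in both (-0.66 ± 0.16 and -0.63 ± 0.16), E2FC fell in col0 (-0.50 ± 0.09) and E2FA, an activator, fell in pip2 (-0.42 ± 0.13; adjusted p = 0.115 without pip2 high replicate 2). Of 24 genes of G2 and mitosis, 5 fell and 0 rose in col0 and 3 fell and 0 rose in pip2, with medians of -0.16 and -0.13. These counts were small and moved with single libraries: in col0 1 fell without col0 high replicate 2, and 3 fell without col0 low replicate 3 or without col0 high replicate 3. In pip2 1 fell, HIK, without pip2 high replicate 2, when the median was -0.015. The kinase gene CDKB1;1 (-0.58 ± 0.14 and -0.41 ± 0.14) and the cytokinesis kinesin gene HIK (-0.38 ± 0.10 and -0.39 ± 0.10) fell in both. AUR2 fell in col0 (-0.31 ± 0.08) and CDKB1;2 in pip2 (-0.49 ± 0.17). Of 7 DNA damage genes tested, none of which rose, 3 fell in col0 and 1 in pip2, among them BRCA1 (-0.53 ± 0.13 and -0.51 ± 0.13) in both and WEE1 (-0.60 ± 0.20) in col0. SMR5 is not analysed here.

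**Figure D5:**
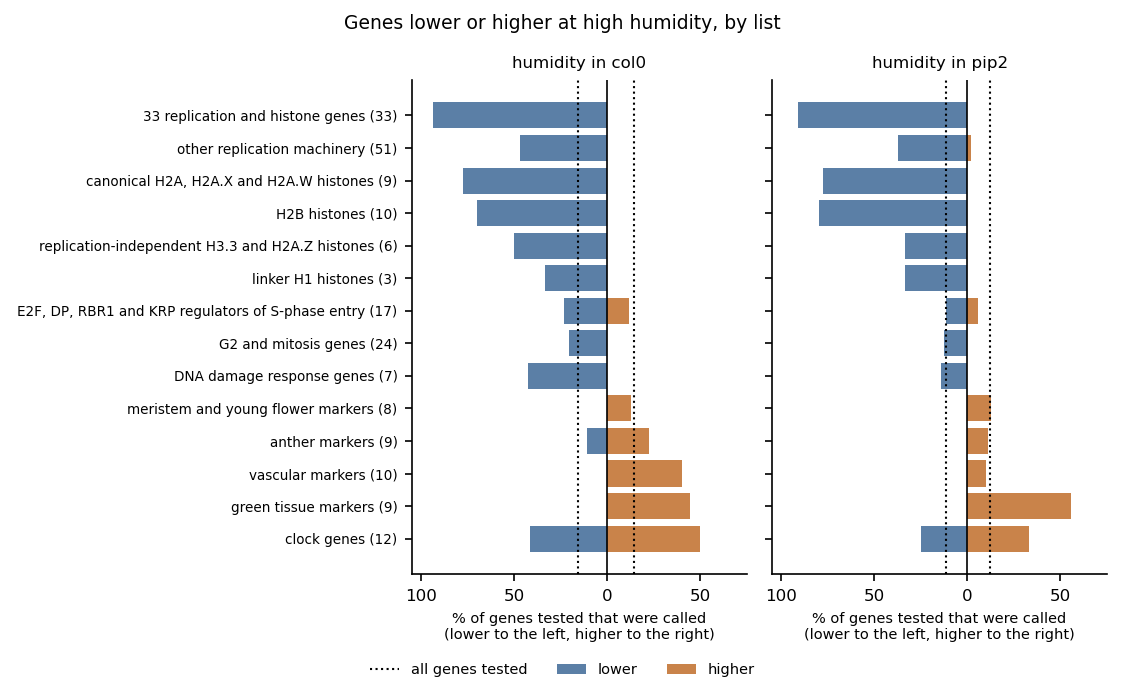
Share of the tested genes of each list (number tested in brackets) that were lower, to the left, or higher, to the right, at high humidity, in col0 and in pip2. Dotted lines mark the shares over all tested genes, 15.8% lower and 14.3% higher in col0 and 11.7% and 12.3% in pip2. The upper 4 bars reach far past the left line in both, and bars of some other lists, such as H3.3 and H2A.Z, pass it too.

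Markers of other tissues and the clock also differed between the humidities, and none of these markers was at 0 in any library. Summed expression of 8 meristem and young flower markers was 440.7 to 457.7 CPM at low and 459.9 to 485.0 CPM at high humidity in col0, and 460.8 to 481.9 and 458.6 to 479.7 CPM in pip2. The sums at high humidity lay above those at low humidity in col0 and overlapped with them in pip2. In that list 0 fell, and CLV1, a receptor of the stem cell loop, rose in both genotypes (0.55 ± 0.06 and 0.48 ± 0.06). The 9 green tissue markers took 1.32% to 1.43% of counts at low and 1.59% to 1.64% at high humidity in col0 (4 of 9 rose), and 1.29% to 1.52% and 1.60% to 1.67% in pip2 (5 of 9 rose), led by the antenna gene LHCB1.1 in col0 (0.58 ± 0.08) and by LHCA1 in pip2 (0.51 ± 0.08). The sum of 9 anther markers was 2548 to 3455 and 3496 to 4492 CPM in col0 (2 rose, GRP17 with 0.55 ± 0.13 and GRP19 with 0.47 ± 0.13, and A9 changed by -0.57 ± 0.20) and 3003 to 3883 and 4006 to 4514 CPM in pip2 (GRP17 rose by 0.40 ± 0.13). In col0 7 of the 9 lay below 0, with a median log2 fold change of -0.27, so the sum and most of the list went opposite ways, and in pip2 5 lay below 0. The sum of 10 vascular markers was 331.8 to 402.1 and 414.1 to 512.8 CPM in col0, where 4 rose, among them CESA8 (0.42 ± 0.09), CESA4 (0.41 ± 0.10) and MYB46 (0.69 ± 0.19), and 323.2 to 397.9 and 397.0 to 439.0 CPM in pip2, where XCP2 rose (0.47 ± 0.15). Without pip2 high replicate 2 GRP17 and XCP2 were no longer called in pip2 (adjusted p = 0.0598 and 0.065), and 4 of the 9 green tissue markers rose. Of 12 clock genes 6 rose and 5 fell in col0, and 4 rose and 3 fell in pip2. The morning genes LHY (1.61 ± 0.07 and 1.35 ± 0.07), RVE4 (1.13 ± 0.08 and 1.05 ± 0.08) and CCA1 (1.02 ± 0.08 and 0.86 ± 0.08) were the clearest. The part of these markers and of the clock in the fall of the S-phase genes was not tested.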

How the data were processed

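Total RNA of dissected inflorescence meristems was sequenced in 12 libraries. Per the submitters' processing notes, the tools named are Trimmomatic 0.39, HISAT2 2.2.1 and featureCounts 2.0.6, with the genome build TAIR10; no source used here says whether strand was used in counting. Counts were deposited by the authors as whole numbers of reads for each gene and were not normalized. The table lists 25424 genes, none of them at 0 in col0 low replicate 1. A second deposited table gives the authors' TPM (its unit per the file headers) and lacks 2537 of those genes.

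Sample titles gave the group and the replicate number. The members, gene lists and tests were chosen with earlier results of these data known. All 33 members are named, PIP2;5 is named as a check of the labels, and each list gives up to 3 genes with the smallest adjusted p, or the 1 with the smallest p where none passed. A gene that this rule names is not reported here. Genes were filtered with filterByExpr (minimum count 10, minimum total 15), scaled by TMM and tested in edgeR 4.0.16 (R 4.3.3), by quasi-likelihood F tests in 1 fit of the 12 libraries, each group having its own mean. Tests were two-sided, with Benjamini-Hochberg adjustment over 21897 genes and a threshold of 0.05. Standard errors were taken as the size of the log2 fold change divided by the square root of F. No replicate pair agreed within counting noise. Alternatives used DESeq2 1.42.0, limma 3.58.1 on log2 TPM, other scalings, no filter, fewer libraries and a replicate block; for the gene lists and for histone and other members apart, leaving out each library was added after the results were seen.

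Libraries with the same replicate number deviated together from their group means in col0 between humidities (correlations 0.289, 0.259 and 0.455) and between genotypes at low humidity (0.229, 0.217 and 0.289). They did so less in pip2 between humidities (0.00454, 0.280 and 0.0830) and between genotypes at high humidity (0.00873, 0.302 and 0.265). The pairing thus comes from the data, not the labels.

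The files give no coordinates. Promoters, exons and motifs were read from the RefSeq genome TAIR10.1 by locus. Protein sequences were not used here.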

Additional observations from a re-analysis of the deposited data

How the results depend on the processing

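No member's call reversed in any alternative. In col0 the count of members lower at high humidity was 29 to 32 of 33 under the other scalings, tests, filters, units and the replicate block, and 28 to 32 when 1 library was left out; 28 of the 31 calls passed in every alternative run, and CDC6, ICU2 and CDC45 lost theirs in some. In pip2 the count was 23 to 30 (23 with only the 2 groups fitted, which has fewer libraries to estimate the spread) and 18 to 30 when 1 library was left out. The lowest, 18, came without pip2 high replicate 2. Of the 30 calls in pip2 18 passed in every alternative, and MCM2, MCM4, MCM5, MCM6, PCNA2, RNR2A, CDC45, CDT1A, ORC2, ICU2, FAS1 and FAS2 lost theirs in some. Between genotypes and for the interaction, leaving out libraries gave 0 calls in all 3 comparisons. With the replicate block 1 member was called at low humidity (CDT1A, -0.29, adjusted p 0.0297) and 1 for the interaction (CDT1A, 0.51, adjusted p 0.030; 0.0813 to 0.504 in the other alternatives). Same-numbered libraries deviated together less evenly in 2 of the comparisons the interaction draws on. Their correlations were 0.00454, 0.280 and 0.0830 for humidity in pip2, and 0.00873, 0.302 and 0.265 between genotypes at high humidity. The block also brought the H4 gene AT1G07660 past the threshold in col0, and it changed no other call in col0 or between genotypes at low humidity. For humidity in pip2 the block changed no call, and all 30 were kept. Genes of low level, such as CDC6 and ORC1A at under 10 CPM, have the widest errors, and what depth adds beyond these libraries was not tested. Of the lists outside the members, with 1 library left out, the E2F, DP, RBR1 and KRP list had 2 to 5 lower in col0 and 1 to 2 in pip2, the G2 and mitosis list 1 to 7 and 1 to 3, the DNA damage list 1 to 3 and 1, and the clock list 3 to 5 and 2 to 3. The anther list had 0 to 2 lower and 1 to 2 higher in col0 and 0 to 2 higher in pip2, and the vascular list 2 to 5 and 0 to 2 higher. The H2A and H2B lists had 7 and 7 lower in col0 in each such fit, and 6 to 8 and 8 to 9 in pip2. These list fits were added after the results were seen.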
